A study of Mus musculus with 6 samples.

Results

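Pericyte marker genes were followed across 6 one-colour arrays of mouse lung. The set comprised 9 genes, Cspg4, Rgs5, Mcam, Kcnj8, Abcc9, Higd1b, Cox4i2, Trpc6 and Ndufa4l2. The rule that defines the set uses no measured value, but the genes were chosen with earlier results of these data known. They were found as the non-control probes whose transcript RefSeq assigns to those symbols, which gave 11 probes of 56605 on the array and 9 genes of the 22911 that could be named. Trpc6 had 3 probes and the other genes 1 each. Myofibroblasts were sorted as CD49e+ Sca-1- Lin- cells from the lungs of mice given bleomycin, an agent that injures the lung and leads to fibrosis. The fibroblast group, from untreated mice, was CD140a+ Lin- cells, and homogenates were whole lungs of untreated mice. All mice were male, each group had 2 arrays, and genotype, strain, age and time after bleomycin are not given in the sources used here. The sorted sets held 50000 cells each. Bleomycin and the CD49e+ Sca-1- gate occur only together, and no homogenate came from mice given bleomycin. In both comparisons of myofibroblasts, treatment and sorting therefore cannot be told apart. Nothing states that the samples of one group are from separate mice, so p-values measure only how these samples vary, and that variation may be technical.

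Pericytes are mural cells that lie on the outer face of capillaries within the basement membrane they share with the endothelium. They are recruited by endothelial PDGF-B, which binds PDGFR-beta on the pericyte, and they are known for setting capillary stability and tone. No single gene defines them, and most of their markers are shared with smooth muscle or with other stromal cells. In the injured lung their contribution to myofibroblasts has been a long-standing question.

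Each value below is a relative signal, the processed signal of a probe divided by the 75th percentile of its array, so that 1 is the level of that percentile. A probe's level is compared only with itself on other arrays. Differences are on the log2 scale, as a mean ± SE from limma, with p-values adjusted by Benjamini-Hochberg over all genes tested. Genes with an adjusted p under 0.05 are called. The words rose and fell give the direction of a difference between groups, not a change in time. The 3 comparisons share arrays (each group enters 2 of them) and are not independent of each other.

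The 9 genes did not share a pattern over the 3 groups. Cspg4 was highest in myofibroblasts, Kcnj8 and Abcc9 were highest in fibroblasts, and Higd1b was highest in homogenates. Between myofibroblasts and fibroblasts 1 of the 8 members tested was higher and 2 were lower (37.5% called, against 17.2% of all 16005 genes tested). Between fibroblasts and homogenates 2 of 9 were higher and 1 was lower (33.3%, against 19.9% of 17062 genes). Between myofibroblasts and homogenates 1 of 9 was higher and 1 was lower (22.2%, against 26.9% of 17162 genes), so this count lay near the background share. The members' median difference was -0.15, -0.03 and -0.17 in the 3 comparisons, beside -0.06, 0.03 and -0.01 over all genes tested. The count of the third comparison was 1 without either homogenate array and 5 without either fibroblast array. The fit pools the spread of the 3 groups, and the fibroblast pair was the widest (SD of the difference between its 2 arrays 0.876 on the log2 scale, against 0.583 for myofibroblasts and 0.388 for homogenates).

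**Figure D1:**
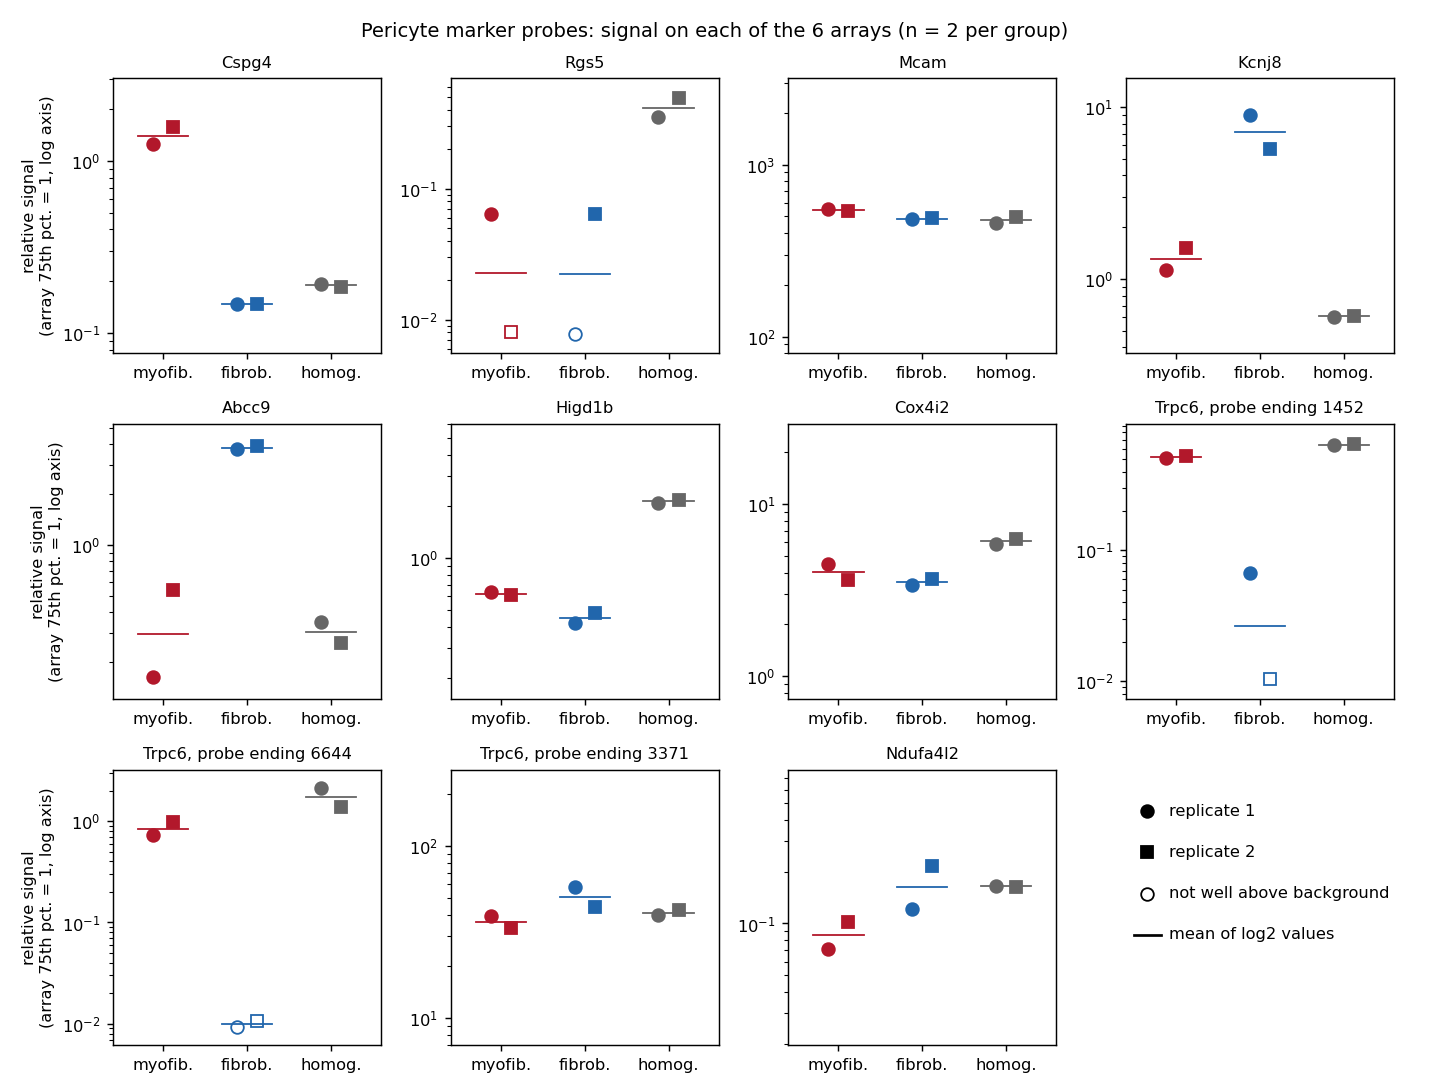
Relative signal (log axis, 75th percentile of the array = 1) of the 11 probes on each of the 6 arrays. Circles and squares are the 2 replicates, open symbols were not well above background, and bars are means of the log2 values. Cspg4 is high on both myofibroblast arrays, Kcnj8 and Abcc9 on both fibroblast arrays, and Higd1b and Rgs5 on both homogenate arrays.

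Upstream sequences are shown for Cspg4 and Kcnj8, called in 2 comparisons each, and for Trpc6, whose probes disagreed, from RefSeq's promoter table (build GRCm38.p6). The table held 6 of the 9 genes. Abcc9 and Higd1b were also called in 2 comparisons each. The sequence of Abcc9 is not printed, and Higd1b was not in the table. Printed are the 250 bases before the annotated start of Cspg4 (chr9:56864854-56865103, plus strand) and of Kcnj8 (chr6:142571615-142571864, minus strand), 5′ to 3′ on the gene's strand, with matches to any motif searched in capitals.
Cspg4: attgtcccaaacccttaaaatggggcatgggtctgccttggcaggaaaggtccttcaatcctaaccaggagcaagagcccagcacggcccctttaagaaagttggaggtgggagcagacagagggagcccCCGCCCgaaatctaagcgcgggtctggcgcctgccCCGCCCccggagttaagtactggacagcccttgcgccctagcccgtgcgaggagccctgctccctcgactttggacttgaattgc
Kcnj8: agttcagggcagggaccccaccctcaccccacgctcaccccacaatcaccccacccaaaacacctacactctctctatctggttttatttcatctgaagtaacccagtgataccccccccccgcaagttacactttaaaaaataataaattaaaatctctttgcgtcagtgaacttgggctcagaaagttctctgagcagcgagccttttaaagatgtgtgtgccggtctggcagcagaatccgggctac
Short motifs and the CArG box were searched on both strands of the 300-base windows around the starts. They were GGAATG (the TEAD motif), GTGGGAA (RBPJ), ACGTG (the core of the hypoxia response element), TATAAA (the TATA box), GGGCGG (the GC box) and GGAAG (the ETS core). They occurred in 14.6%, 6.39%, 19.7%, 14.2%, 35.9% and 71.1% of all 27025 windows, and the CArG box, the binding sequence of serum response factor, in 1.57%. The Cspg4 sequence was 60.4% G and C and held 2 GC boxes on the minus strand. The Kcnj8 sequence was 49.2% G and C, and none of these letters occurred in it. The window of Abcc9 held GGAATG at -219 and a GC box on the minus strand at -79, counted from its start. That start is not the outermost one annotated for Abcc9. The window of Trpc6, a cation channel gene, held a CArG box 122 bases before the annotated start, shown in capitals within 30 bases (chr9:8544010-8544039, plus strand).
Trpc6: cctttcgatcCCTTTAAAGGtggggatcgt
The box reads the same on both strands. The upstream bases of that window also held ACGTG at -94 and GGAAG at -166 and -87, counted from the start. The start is not the outermost one annotated for Trpc6, and which transcript it belongs to was not used here. These are matches of letters and no binding was measured.

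Cspg4 encodes the NG2 proteoglycan, a surface chondroitin sulfate proteoglycan of pericytes, smooth muscle and oligodendrocyte precursors. Its relative signal was 1.26 and 1.57 in myofibroblasts, 0.147 and 0.147 in fibroblasts and 0.193 and 0.184 in homogenates. Both myofibroblast arrays stood above the other 4, and no groups overlapped. Myofibroblasts were higher than fibroblasts by 3.26 ± 0.25 (limma adjusted p = 0.00239) and higher than homogenates by 2.89 ± 0.25 (adjusted p = 0.00109). The difference between fibroblasts and homogenates was -0.36 (95% interval -0.98 to 0.25, adjusted p = 0.372). Both calls held in all 18 alternative analyses, with the difference down to 2.05 and 1.98 under normexp background correction. S100b, a marker of glia, some of which also carry NG2, was called higher in myofibroblasts, by 2.47 against fibroblasts (adjusted p = 0.0148, and up to 0.0693 without myofibroblast replicate 1 or with array weights) and 3.14 against homogenates. The part of such cells in the Cspg4 difference was not tested.

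Mcam encodes CD146, an adhesion molecule of the immunoglobulin superfamily found on pericytes and on endothelium. It read 551 and 535 in myofibroblasts, 481 and 487 in fibroblasts and 460 and 496 in homogenates. The myofibroblast arrays were the highest by a small margin, and fibroblasts lay within the range of the homogenates. Its differences were 0.17 for myofibroblasts over fibroblasts (95% interval -0.41 to 0.74, adjusted p = 0.636), 0.18 over homogenates (-0.39 to 0.76, adjusted p = 0.583) and 0.02 for fibroblasts over homogenates (-0.55 to 0.59, adjusted p = 0.964). No call was made in any of the 18 alternatives of each comparison, and all 3 signs turned in the authors' deposited table. The endothelial markers fell steeply from homogenates to both sorted groups, as given below, while the Mcam probe stayed nearly level. Its highest array was 1.20-fold above its lowest. It is the only probe of Mcam, and whether so bright and level a signal reports Mcam RNA was not tested.

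Kcnj8 and Abcc9 encode the Kir6.1 pore and the SUR2 regulatory subunit, which together form the ATP-sensitive potassium channel of vascular mural cells. Kcnj8 read 1.14 and 1.52 in myofibroblasts, 9.03 and 5.74 in fibroblasts and 0.601 and 0.613 in homogenates. The 3 groups were ordered fibroblasts, myofibroblasts, homogenates, with no overlap. Kcnj8 was higher in fibroblasts than in homogenates by 3.57 ± 0.33 (limma adjusted p = 0.00155), a call kept in all 18 alternatives. Myofibroblasts stood at -2.45 ± 0.33 relative to fibroblasts (adjusted p = 0.00961), a call that ended without myofibroblast replicate 1 (adjusted p = 0.0516). The difference of myofibroblasts over homogenates, 1.12 ± 0.33 (95% interval 0.30 to 1.93), did not pass (adjusted p = 0.0558). It passed in 8 of 18 alternatives.

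Abcc9 read 0.163 and 0.540 in myofibroblasts, 3.72 and 3.88 in fibroblasts and 0.348 and 0.263 in homogenates. Both fibroblast arrays stood far above the rest, and the homogenates lay between the 2 myofibroblast arrays. Myofibroblasts were at -3.68 ± 0.58 relative to fibroblasts (limma adjusted p = 0.0153). That difference was -2.81 without myofibroblast replicate 1 and -4.54 without replicate 2, and the call ended without fibroblast replicate 1 (adjusted p = 0.0543) and with array weights per group (0.0796). Fibroblasts were higher than homogenates by 3.65 ± 0.58 (adjusted p = 0.00986), and this call ended without fibroblast replicate 1 (0.0513), homogenate replicate 1 (0.0510) or homogenate replicate 2 (0.0701). The difference of myofibroblasts from homogenates was -0.03 (95% interval -1.47 to 1.42, adjusted p = 0.977). The 2 subunit genes lie side by side on chromosome 6, with 0 annotated genes starting between them. Their Pearson r over the 6 arrays was 0.92, a description of 3 groups of 2 and not a test.

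The alternative subunits of this channel family were not called in these comparisons. Kcnj11, the Kir6.2 pore, read 0.902 and 1.22 in myofibroblasts, 0.430 and 0.762 in fibroblasts and 0.527 and 0.479 in homogenates. Its difference between myofibroblasts and fibroblasts was 0.87 (adjusted p = 0.147). Abcc8, the SUR1 subunit, was above background on 1 myofibroblast array, 0 fibroblast arrays and 1 homogenate array and was not tested. In the list of 4 ATP-sensitive potassium channel genes the 2 called between myofibroblasts and fibroblasts, both lower, and the 2 called between fibroblasts and homogenates, both higher, were Kcnj8 and Abcc9. Over all genes tested, 17.2% and 19.9% were called in these comparisons, and 26.9% between myofibroblasts and homogenates. None of the 3 tested was called between myofibroblasts and homogenates by limma, where 2 had an unadjusted p under 0.05, Kcnj8 and Kcnj11 (a difference of 1.06).

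Trpc6, a receptor-operated calcium-permeable channel, gave different pictures by probe. Its brightest probe, A_55_P2503371, annotated to NM_001282087, read 39.4 and 33.5 in myofibroblasts, 57.7 and 44.0 in fibroblasts and 39.8 and 42.3 in homogenates. By that probe the differences were -0.47 between myofibroblasts and fibroblasts (95% interval -1.14 to 0.19, adjusted p = 0.255), 0.30 between fibroblasts and homogenates (-0.37 to 0.96, adjusted p = 0.499) and -0.17 between myofibroblasts and homogenates (-0.84 to 0.49, adjusted p = 0.656). None of them passed.

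The other 2 probes of Trpc6, both annotated to NM_013838, were low on the fibroblast arrays. Probe A_55_P1966644 read 0.730 and 0.977 in myofibroblasts and 2.12 and 1.39 in homogenates, but 0.00934 and 0.0107 in fibroblasts, where neither array was well above background. Probe A_51_P411452 read 0.510 and 0.524 in myofibroblasts, 0.637 and 0.653 in homogenates and 0.0668 and 0.0103 in fibroblasts, where 1 of 2 arrays was above background. A fold against such a group is a lower bound, taken from the lowest signal well above background on each dim array.

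By A_55_P1966644, Trpc6 was at least 19.7-fold higher in myofibroblasts than in fibroblasts (limma over all probes, adjusted p = 0.00272) and at least 40.0-fold higher in homogenates than in fibroblasts (adjusted p = 0.000426). By A_51_P411452 the bounds were at least 9.27-fold (adjusted p = 0.0314) and at least 11.6-fold (adjusted p = 0.0230). The calls of A_55_P1966644 held in all 15 alternatives that applied to it. Those of A_51_P411452 ended in 6 of 15 and 4 of 15, among them without either homogenate array (adjusted p up to 0.0841 and 0.124) and with 1 myofibroblast array left out (up to 0.120 and 0.0532). Between myofibroblasts and homogenates neither passed, with differences of -1.02 (95% interval -1.85 to -0.19, adjusted p = 0.0806) and -0.32 (-2.47 to 1.83, adjusted p = 0.805). In the fit over all probes 3 member probes were higher and 2 lower of 10 tested between myofibroblasts and fibroblasts, against 16.1% called of all probes, 2 higher and 3 lower of 11 between fibroblasts and homogenates, against 14.5%, and 1 of each of 11 between myofibroblasts and homogenates, against 22%.

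The direction of Trpc6 therefore depended on the probe. When the log2 values of its probes were averaged, the gene stood at 3.41 between myofibroblasts and fibroblasts (limma adjusted p = 0.00428) and at -3.91 between fibroblasts and homogenates (adjusted p = 0.00138), with signs opposite to those of its brightest probe. These averages take in fibroblast signals not well above background, so they give a direction and not a measured size. The 2 probes of NM_013838 had a Pearson r of 0.93 over the 6 arrays, and the brightest probe had -0.75 with A_55_P1966644. Which exons the probes cover was not used here. Of 5 TRPC channel genes tested, Trpc6 among them, Trpc1 alone was called, lower in myofibroblasts than in fibroblasts (-1.41 ± 0.35, limma adjusted p = 0.0491) and higher in fibroblasts than in homogenates (1.90 ± 0.35, adjusted p = 0.0168). Over all genes tested, 17.2% and 19.9% were called in these comparisons, and 1 of 5 lies near these shares. The first Trpc1 call ended in 15 of 18 alternatives, and the other probe of Trpc1 read -0.45, not called. The second ended with array weights (adjusted p = 0.132), without fibroblast replicate 1 (0.0573) and without homogenate replicate 2 (0.112).

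Rgs5 encodes a regulator of G protein signalling that is used as a leading marker of pericytes. It read 0.0637 and 0.00809 in myofibroblasts, 0.00783 and 0.0644 in fibroblasts and 0.351 and 0.493 in homogenates. Both homogenate arrays stood above the other 4, and only 1 array of each sorted group was well above background. Homogenates were at least 8.24-fold above fibroblasts and at least 8.15-fold above myofibroblasts. Neither difference passed (limma adjusted p = 0.0817 and 0.0656), and the 2 arrays of each sorted group were far apart. The first passed in 2 of 17 alternatives and the second in 6 of 17. Myofibroblasts and fibroblasts were not compared, because neither had the probe above background on both arrays. With fewer pericytes in a sample and less Rgs5 RNA per pericyte the bulk signal would be the same, and these cannot be told apart here.

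**Figure D2:**
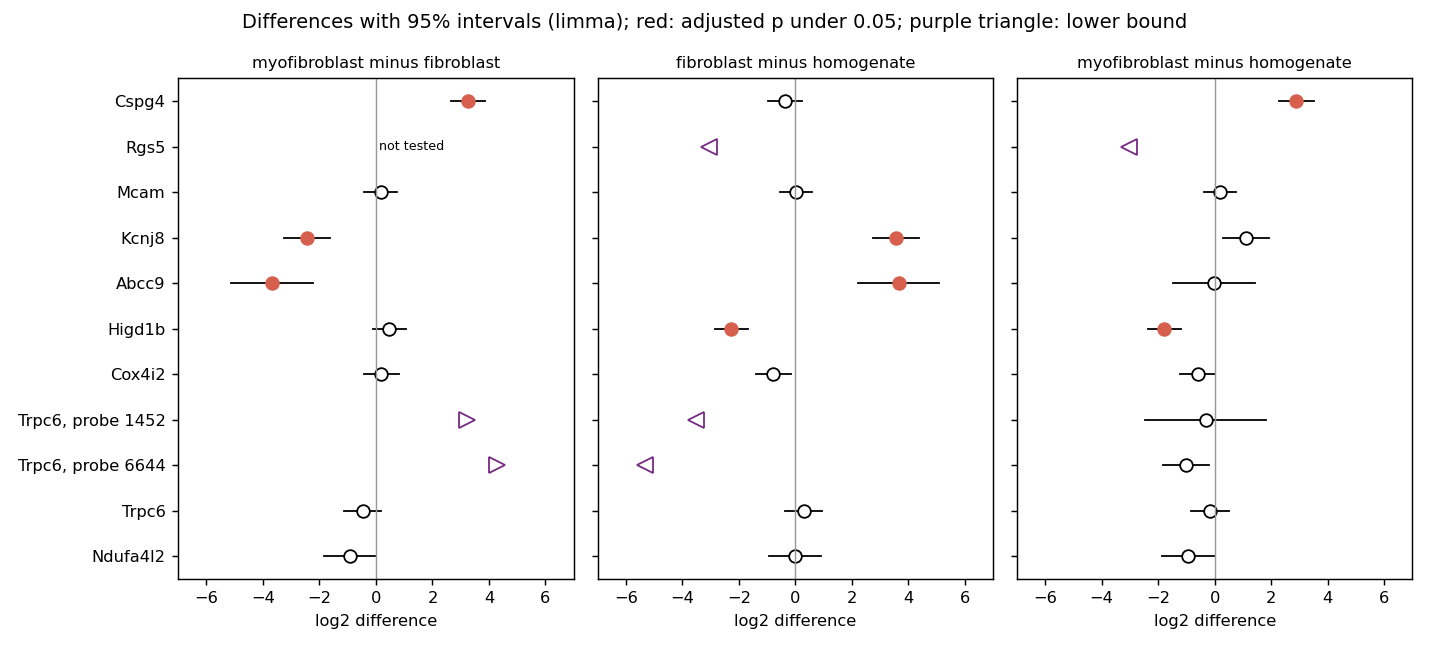
Log2 differences of the 11 probes in the 3 comparisons, with 95% intervals from limma. Red points passed the test and white points did not. Purple triangles are lower bounds where one group was not well above background on both arrays; those of Rgs5 did not pass, and those of the 2 dim Trpc6 probes did.

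The other R4-type RGS genes, small regulators that speed the switch-off of Gi and Gq signals, were not all low in myofibroblasts. Of 4 tested between myofibroblasts and fibroblasts, 2 were higher and 0 lower (17.2% of all genes tested were called there). Rgs16 read 2.52 and 2.37 in myofibroblasts against 0.0473 and 0.0847 in fibroblasts, a rise of 5.27 ± 0.40 (adjusted p = 0.00238), and it was at least 51.7-fold above homogenates (adjusted p = 0.000550). Rgs3 rose by 1.88 ± 0.25 (adjusted p = 0.00989, and 0.0588 without myofibroblast replicate 2) and was 1.76 above homogenates by its brightest probe (adjusted p = 0.00621, lost without either homogenate array), although another of its 4 probes read -2.82 there. Of 6 tested against homogenates, Rgs5 among them and not called, 1 was lower and 0 higher in fibroblasts (19.9% of all genes called). In myofibroblasts 2 of the 6 were higher and 1 lower (26.9% of all genes called). Rgs1, a leukocyte RGS gene, was the one lower in both, at least 81.5-fold and 86.4-fold.

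Higd1b, a hypoxia-inducible domain family member of the mitochondrial inner membrane, was enriched in homogenates. It read 0.633 and 0.609 in myofibroblasts, 0.417 and 0.477 in fibroblasts and 2.10 and 2.18 in homogenates. Replicates lay close together and no groups overlapped. Fibroblasts were at -2.26 ± 0.24 relative to homogenates (limma adjusted p = 0.00235, kept in all 18 alternatives) and myofibroblasts at -1.79 ± 0.24 (adjusted p = 0.00466). The second call ended without homogenate replicate 1 (adjusted p = 0.0532) or 2 (0.0590). Myofibroblasts and fibroblasts differed by 0.48 (95% interval -0.11 to 1.06, adjusted p = 0.204).

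Cox4i2, the inducible isoform of cytochrome c oxidase subunit 4, read 4.48 and 3.63 in myofibroblasts, 3.40 and 3.68 in fibroblasts and 5.89 and 6.30 in homogenates. Both homogenate arrays were above the other 4, and the sorted groups overlapped. None of its differences passed: -0.78 for fibroblasts over homogenates (95% interval -1.41 to -0.16, adjusted p = 0.0875), -0.59 for myofibroblasts over homogenates (-1.22 to 0.03, adjusted p = 0.133) and 0.19 between the sorted groups (-0.43 to 0.81, adjusted p = 0.614). The first passed in 2 of 18 alternatives and the second in 4. The sign of the last turned under quantile normalization and in the authors' deposited table. Over the 6 arrays Cox4i2 had a Pearson r of 0.97 with Higd1b and 0.93 with Rgs5, again over 3 groups of 2.

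Ndufa4l2, a paralogue of a cytochrome c oxidase subunit and a known hypoxia target, read 0.0713 and 0.102 in myofibroblasts, 0.122 and 0.215 in fibroblasts and 0.166 and 0.164 in homogenates. Both myofibroblast arrays were the lowest. The differences of -0.93 from fibroblasts (95% interval -1.85 to -0.01, adjusted p = 0.136) and -0.95 from homogenates (-1.87 to -0.03, adjusted p = 0.112) did not pass after adjustment. The first passed in 1 of 18 alternatives and the second in 5. Fibroblasts and homogenates differed by -0.03 (-0.95 to 0.90, adjusted p = 0.970).

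Several mitochondrial genes related to these 3 members were higher in myofibroblasts. Of 10 tested between myofibroblasts and fibroblasts, 4 were higher and 1 lower, with a median of 1.20 (17.2% of all genes tested were called there). Higd2a rose by 1.95 ± 0.46, Cox6a1 by 1.65 ± 0.40, Cox7a2 by 1.60 ± 0.34 and Ndufa4, the paralogue of Ndufa4l2, by 1.30 ± 0.24, with adjusted p between 0.0223 and 0.0470. Each of these 4 calls ended in 7 or more of the 18 alternatives. All 4 ended under quantile normalization, where the list's 1 higher gene was another one. In the authors' deposited table the list's 1 higher gene was Ndufa4. Cox8b was lower by at least 4.51-fold, which no longer passed in 12 of the 18 alternatives. Cox4i1, the constitutive counterpart of Cox4i2, read 31.6 and 35.7 in myofibroblasts against 3.88 and 16.8 in fibroblasts, and did not pass (2.06, adjusted p = 0.0912). Higd1a, the paralogue of Higd1b, differed by -0.12. Against homogenates 0 were higher and 1 lower of 10 in fibroblasts (19.9% of all genes called). In myofibroblasts 1 of 9 was higher (Ndufa4, 1.03, not called in 7 alternatives) and 1 lower (26.9% of all genes called). The lower one was Cox6a2, a muscle isoform, at -3.04 and -1.94, the second not called without either homogenate array (adjusted p up to 0.0777).

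Other mural cell genes were also split between the groups. Of 20 on the list, 18 were tested between myofibroblasts and fibroblasts, with 1 higher and 4 lower and a median of 0.04 (1 higher and 7 lower in the authors' deposited table). In that comparison 17.2% of all genes tested were called. Des, the muscle intermediate filament desmin, read 30.6 and 42.4 in myofibroblasts against 0.126 and 0.430 in fibroblasts and rose by 7.28 ± 0.62 (adjusted p = 0.00319). Agtr1a, an angiotensin receptor, was at least 2.39-fold lower and Anpep, the aminopeptidase CD13, at least 8.33-fold lower. Angpt1, the angiopoietin of mural cells, stood at -2.52 ± 0.27 (adjusted p = 0.00548). The Agtr1a call ended without either myofibroblast array and under normexp (adjusted p up to 0.152). Ednra, the fourth lower gene and an endothelin receptor, was at -2.27 and lost its call in 8 alternatives (up to 0.155).

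Against homogenates 8 of 19 mural genes were higher and 1 lower in fibroblasts (median 1.37), and 6 were higher and 4 lower in myofibroblasts (median 0.55). The shares called over all genes tested were 19.9% and 26.9%. In fibroblasts Lamc3, a laminin chain, was at least 21.5-fold higher, Vtn (vitronectin) at least 7.10-fold lower, and Cd248 (endosialin) rose by 3.56 ± 0.24. In myofibroblasts Des rose by 5.04 ± 0.62, Cd248 by 4.36 ± 0.24, and Agtr1a was at least 6.73-fold lower. Pdgfrb, the receptor for the recruiting ligand, read 33.5 and 33.3 in myofibroblasts, 38.0 and 14.2 in fibroblasts and 6.64 and 4.06 in homogenates. It was above homogenates by 2.69 ± 0.53 in myofibroblasts (adjusted p = 0.0175) and 2.16 ± 0.53 in fibroblasts (adjusted p = 0.0408). The first call ended without either homogenate or either myofibroblast array (adjusted p up to 0.113) and the second in 10 of 18 alternatives. The 2 sorted groups differed by 0.53 (adjusted p = 0.508). Notch3, the mural Notch receptor, was at 0.15 between the sorted groups (adjusted p = 0.698).

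Contractile genes of smooth muscle were mostly higher in myofibroblasts. Of 10 tested, 6 were higher and 1 lower than in fibroblasts (median 1.97), and 7 were higher and 2 lower than in homogenates (median 2.39). Fibroblasts had 1 higher and 2 lower than homogenates (median -0.37). The shares called over all genes tested were 17.2%, 26.9% and 19.9% in these comparisons, in this order. Actg2, Cnn1 and Tagln rose by 5.03 ± 0.66, 4.31 ± 0.25 and 3.87 ± 0.40 over fibroblasts. Acta2, alpha smooth muscle actin, rose by 3.35 ± 0.46 (adjusted p = 0.0107), and did not pass when 1 myofibroblast sample was omitted (adjusted p of 0.0501 and 0.0640). Actg2 lost its call without myofibroblast replicate 2 (adjusted p = 0.0541). Myh11, the smooth muscle myosin heavy chain, read 3.67 and 2.78 in myofibroblasts, 0.774 and 0.715 in fibroblasts and 6.45 and 9.47 in homogenates. It rose by 2.10 ± 0.31 over fibroblasts (adjusted p = 0.0127), a call that ended without myofibroblast replicate 1 and with array weights (adjusted p up to 0.0887), and stood at -1.29 ± 0.31 relative to homogenates (adjusted p = 0.0316), a call that ended in 6 alternatives. Cspg4, whose protein smooth muscle also carries, was higher than in homogenates, and the part of smooth muscle cells in its signal was not tested.

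**Figure D3:**
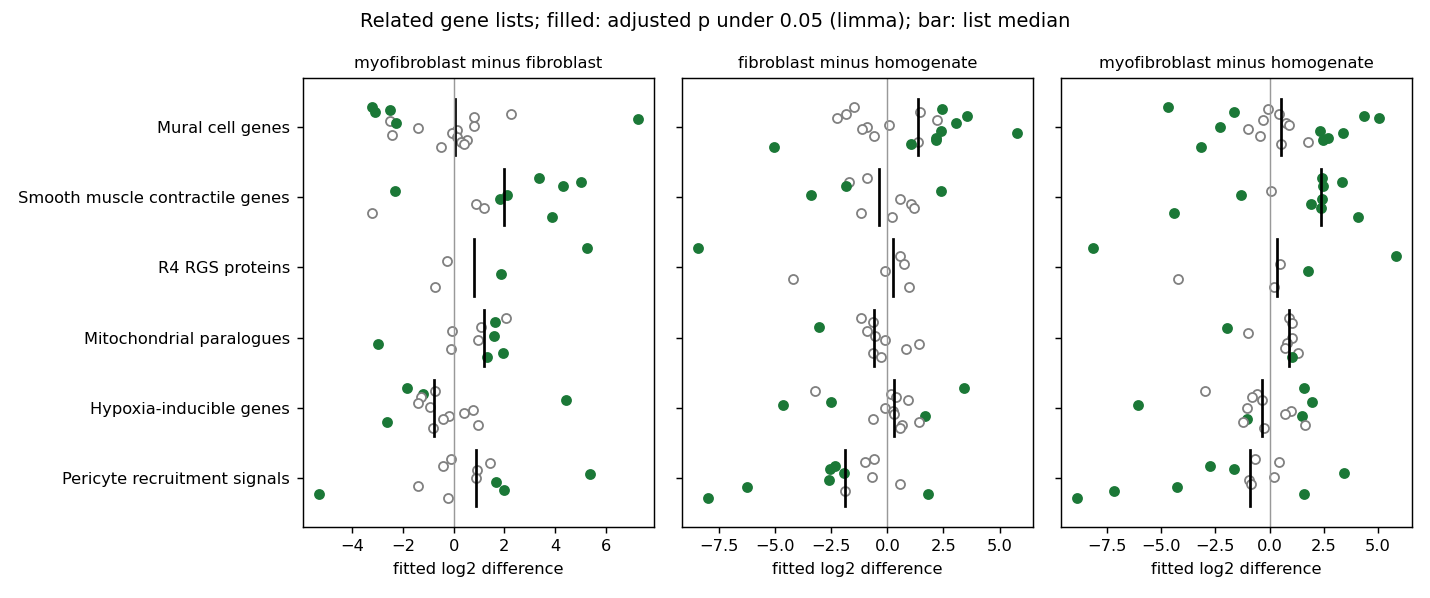
Fitted log2 differences of the tested genes of 6 related lists in the 3 comparisons. Filled points passed the test, open points did not, and black bars are list medians. Values of genes not above background in one group are fitted values and not bounds. Smooth muscle genes lie mostly to the right in both myofibroblast comparisons, and the mural list spreads to both sides.

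The labels were checked on the sorting antigens and on markers of other lung cells. Itga5, the gene of CD49e, was 4.01 ± 0.35 higher in myofibroblasts than in fibroblasts (adjusted p = 0.00324), Pdgfra, the gene of CD140a, was at -2.36 ± 0.39 (adjusted p = 0.0180, and up to 0.0829 with a myofibroblast or homogenate array left out), and Ly6a, which encodes Sca-1, was at -1.94 ± 0.32 (adjusted p = 0.0168). All 8 endothelial markers were lower in both sorted groups than in homogenates. Their summed relative signal was 0.358 to 0.425 in myofibroblasts, 0.407 to 0.475 in fibroblasts and 89.2 to 92.2 in homogenates, and Pecam1 was at -7.54 in myofibroblasts and at least 183-fold lower in fibroblasts. Between the sorted groups 1 of 4 endothelial markers was higher and 0 lower. Over all genes tested, 17.2% were called between the sorted groups. Against homogenates the shares were 19.9% for fibroblasts and 26.9% for myofibroblasts. All 8 epithelial markers were lower in both sorted groups too, with sums of 11.8 to 17.8, 72.1 to 121 and 831 to 841, and 2 of 5 were lower in myofibroblasts than in fibroblasts. Most of the sums of the sorted groups came from Scgb1a1, at 10.4 and 15.9 in myofibroblasts and 118 and 69.0 in fibroblasts. The homogenate-high pattern of Higd1b and Rgs5 was therefore accompanied by endothelial, epithelial and leukocyte signal, and the part of these cells in it was not tested.

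Leukocyte markers summed to 175 to 184 in myofibroblasts, 176 to 193 in fibroblasts and 258 to 269 in homogenates. Most of that sum in the sorted groups came from the brightest probe of Itgam, at 163 and 154 in myofibroblasts, 173 and 151 in fibroblasts and 136 and 143 in homogenates, while its other probe was at -4.15 in fibroblasts and -2.64 in myofibroblasts relative to homogenates. The sum therefore does not give the share of leukocyte RNA, and Ptprc was at least 549-fold lower in fibroblasts and at least 453-fold lower in myofibroblasts. Of 8, 6 were lower in fibroblasts and 5 in myofibroblasts than in homogenates, and 1 of 6 was higher in myofibroblasts than in fibroblasts. That one was Tyrobp, at least 9.07-fold. Csf1r was not called against homogenates by its brightest probe, while its other probe was at -3.95 in fibroblasts and -3.60 in myofibroblasts. Ptprc, Lyz2, Cd79a and Tyrobp were above background on neither fibroblast array. Fibroblast markers summed to 882 to 913, 368 to 484 and 42.8 to 45.2, with 3 higher and 2 lower of 8 between the sorted groups, 6 higher and 1 lower in fibroblasts against homogenates, and 5 higher and 0 lower in myofibroblasts. Most of the myofibroblast sum came from the collagen genes Col1a1 (325 and 345) and Col1a2 (507 and 514), and the list's median between the sorted groups was -0.67, with Pdgfra and Dcn called lower. Mesothelial markers summed to 1.84 to 2.89, 4.43 to 11.1 and 5.99 to 6.03. Most of the sums of the sorted groups came from Upk1b, at 2.45 and 1.66 in myofibroblasts and 10.2 and 4.07 in fibroblasts. None of 2 mesothelial markers tested between the sorted groups was called by limma (2 at an unadjusted p under 0.05), and 3 and 4 of 5 were lower than in homogenates in fibroblasts and myofibroblasts. Beside the counts of these lists, 17.2% of all genes tested were called between the sorted groups. Against homogenates 19.9% were called for fibroblasts and 26.9% for myofibroblasts.

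**Figure D4:**
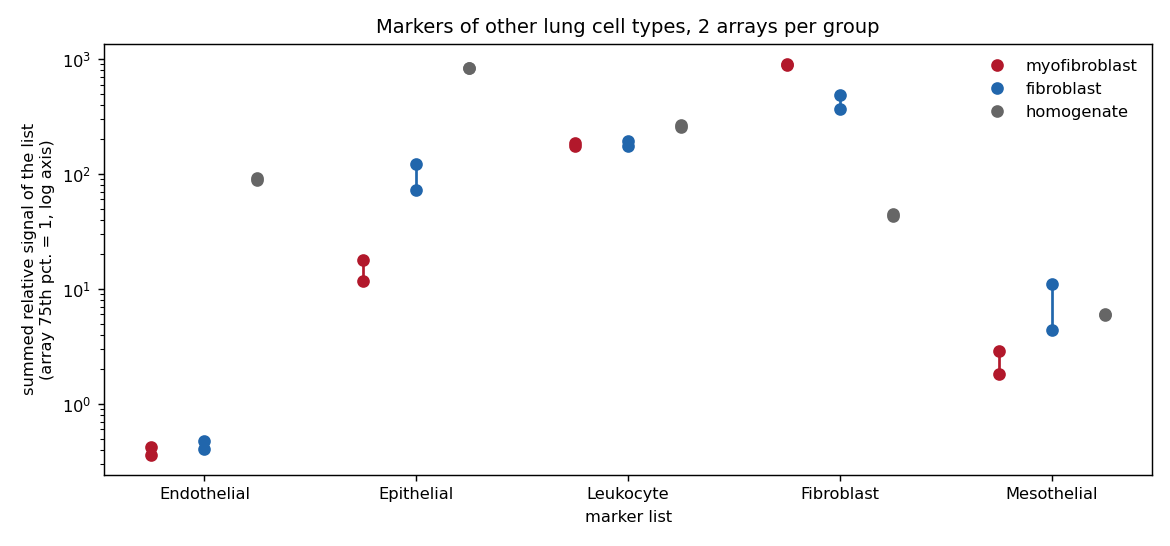
Summed relative signal (log axis) of 5 lists of cell type markers on the 2 arrays of each group. Points joined by a line are the 2 arrays. Endothelial and epithelial sums are highest in homogenates and fibroblast sums, mostly Col1a1 and Col1a2, in myofibroblasts. In the sorted groups the leukocyte sums are mostly 1 Itgam probe, the epithelial sums mostly Scgb1a1 and the mesothelial sums mostly Upk1b.

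The genes whose pattern over the 6 arrays was most like each member were looked up among 12913 genes above background on all 6. Cspg4 was closely matched by Hspe1 (Pearson r 0.9986). Kcnj8 was most like C1s1 (0.9992) and Rnase4 (0.9989), and Abcc9 most like Scara5 (0.9975) and Bmp4 (0.9953). Higd1b was most like Vav1 (0.9992) and Rnf125 (0.9983), and Cox4i2 most like Mag and Cela1 (both 0.99). The brightest Trpc6 probe was most like Cdkn2aip (0.9960) and Casc3 (0.99), Ndufa4l2 most like Tmem170 and Kctd6 (both 0.99), and Mcam most like Nme6 and Srek1 (both 0.98). With 6 points in 3 pairs, these values describe how the groups are ordered. Rgs5 was not read on all 6 arrays and was left out.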

How the data were processed

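Total RNA (5.8 ng per sample) was labelled with Cy3 by the submitters and hybridised to 6 one-colour Agilent arrays. Per the file headers, the 6 deposited array files give the intensity of each spot from Agilent Feature Extraction (version 12.0.3.1 in the submitters' processing notes), background-subtracted and detrended as processed signal. The authors' deposited normalized table holds the same intensity values multiplied by 1 constant per array and was used as an alternative. Of 59305 non-control spots per array, 65.5% to 73.4% were well above background and 0 were saturated, and the number of arrays, 2 per group, limits the precision.

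Control and outlier spots were left out, spots of a probe averaged, and log2 of the processed signal taken minus the array's 75th percentile. Of 56605 probes 32994 were named by RefSeq accession and 23611 were not. A gene was read by its brightest probe and tested where 1 or both groups compared had that probe well above background on all their arrays; the other probes of a member were read from a fit over all probes. All 3 groups entered 1 limma fit (limma 3.58.1, R 4.3.3) without a block, with Benjamini-Hochberg adjustment. On simulated arrays with 50 genes changed at each size, the script recovered 10 at a log2 change of 1, 41 at 2 and 50 at 3. The simulation gave all genes and groups the same spread and changed only genes above background on every array. The real groups differ in spread, so these counts do not give the power of the comparisons here. The members and lists were chosen with earlier results of these data known. Named were all members, up to 3 called genes of each list with the largest difference in the comparison described, and 10 genes always. S100b, Tyrobp, Itgam, Ptprc, Tgfbr2, Ednra, Myh11 and Cox8b, and the genes of the sorting antigens, were added after their values were seen. Other genes outside this rule, among them Upk1b, Cd79a, Csf1r, Cox7a2 and Angpt1, were also named with their values known. Promoter sequences were read from the RefSeq table of GRCm38.p6, while the array's header names another build, so no probe positions are given. Same-numbered arrays did not vary together (correlations of 0.07, 0.04 and -0.01 over 13998 genes). Some of the genes of these lists are not reported here.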

Additional observations from a re-analysis of the deposited data

How the results depend on the processing

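Over 18 alternatives to the analysis, Cspg4 kept both its calls, and Kcnj8 and Higd1b kept theirs for fibroblasts against homogenates. The pericyte genes called between fibroblasts and homogenates numbered 5 under normexp and 2 to 4 with 1 array left out. Between myofibroblasts and homogenates they numbered 5 under normexp, 5 in the authors' table, 5 with only the 2 groups in the fit, 6 with array weights per group (an alternative chosen after seeing the data) and 1 to 5 with 1 array left out. The cause was not tested.

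All genes called between myofibroblasts and fibroblasts numbered 2758, but 710 at an adjusted p under 0.01, 1821 for genes above background on every array compared, 5973 as probes in 1 fit, 1264 with 2 groups, 947 with array weights and 1030 to 5738 with 1 array left out. Between fibroblasts and homogenates 3392 became 1725, 1834, 5743 (as probes) and 1544 to 6159 under the first 3 of these and with 1 array left out. Between myofibroblasts and homogenates 4613 became 2073, 2760, 8741 (as probes), 7391, 8082 and 1837 to 7212, in the same order. With the replicate block the counts were 2227, 3219 and 4044, the pericyte genes called stayed 3, 3 and 2, and no member's call changed; the numbers do not pair the samples.

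Signs turned for members that were not called. For myofibroblasts over fibroblasts, Mcam was -0.25 in the authors' table, Cox4i2 -0.025 (quantile) and -0.22 (authors' table), and Trpc6 3.41 with its probes averaged. For fibroblasts over homogenates, Trpc6 was -3.91 with its probes averaged, Mcam -0.029 (normexp), -0.057 (quantile) and -0.067 (authors' table), and Ndufa4l2 0.080 (normexp), 0.26 (quantile) and 0.24 (median scaling). Both averages of Trpc6 rest in part on fibroblast signals not well above background. With 1 array left out Mcam ran from -0.035 to 0.073 and Ndufa4l2 from -0.44 to 0.39. For myofibroblasts over homogenates, Mcam was -0.31 in the authors' table, Trpc6 0.23 and its probe A_51_P411452 0.085 under median scaling, and Abcc9 0.17 (normexp), 0.24 (quantile) and 0.38 (median scaling), with -0.89 to 0.84 when 1 array was left out. In those leave-one-out fits the lone sample of a group is assumed to vary like the other groups.

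The scaling moves the median of all genes: by 0.14, 0.27 and 0.40 in the 3 comparisons under median scaling, and by -0.41, -0.09 and -0.50 in the authors' table. Of the calls 53.5%, 40.7% and 44.3% were higher, against 64.6%, 50.7% and 64.9% under median scaling and 25.4%, 36.8% and 20.6% in the authors' table. Signal near background limits Rgs5, Ndufa4l2 and the 2 dim Trpc6 probes most.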

Other observations

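Signals that recruit and hold pericytes went both ways. Of 12 on the list, 6 were lower and 1 higher in fibroblasts against homogenates (median -1.90), and all 8 endothelial markers were lower there too (median -7.88, summed relative signal 0.407 to 0.475 in fibroblasts and 89.2 to 92.2 in homogenates). The part of endothelial cells in these differences was not tested. Tie1, an endothelial receptor of the angiopoietin system, was at least 110-fold lower, S1pr1, a receptor for sphingosine 1-phosphate, stood at -6.25 and Pdgfb, the ligand of PDGFR-beta, at -2.59, while Tgfbr2, a TGF-beta receptor, was the one higher, at 1.81 (not called in 5 of 18 alternatives). Myofibroblasts had 5 lower and 2 higher of 12 (median -0.89). Over fibroblasts they had 3 higher and 1 lower of 11 (median 0.88). The shares called over all genes tested were 19.9%, 26.9% and 17.2% in these comparisons, in this order. Hbegf, a heparin-binding growth factor, read 21.2 and 21.2 in myofibroblasts against 0.778 and 0.341 in fibroblasts and rose by 5.36 ± 0.42 (limma adjusted p = 0.00261). Tek, the angiopoietin receptor, was lower by at least 18.1-fold, which no longer passed in 7 of 18 alternatives.

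Hypoxia-inducible genes, of interest because 3 members have names tied to hypoxia or oxygen use, did not move one way. Of 14 tested between myofibroblasts and fibroblasts 1 was higher and 3 lower (median -0.77), beside 17.2% of all genes called. Egln3, an oxygen-sensing prolyl hydroxylase, was at least 8.60-fold higher, whereas Pfkfb3, of glycolytic control, stood at -2.62 and Adm, the peptide adrenomedullin, at -1.84. The calls of Pfkfb3 and Adm ended without either myofibroblast or either homogenate array (adjusted p up to 0.0828 and 0.0696). Against homogenates 2 were higher and 2 lower of 15 in fibroblasts (median 0.29), and 3 higher and 2 lower of 15 in myofibroblasts (median -0.37). The shares called over all genes tested were 19.9% and 26.9%. Epas1, which encodes HIF-2 alpha, was at -4.64 and -6.05.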
